A study of Mus musculus with 60 samples.

Results

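The cells described here are mouse erythroleukemia (MEL) cells of the line T-3-Cl-2-0.fl, labelled as a form that is easily induced to differentiate (HD-MEL), after 36 or 24 h in 5 mM HMBA. HMBA (hexamethylene bisacetamide) is a polar compound used to make these cells mature. RNA from the treated cells and RNA from the cells before treatment were hybridised together on 2-colour cDNA arrays, so that each spot gives the ratio of after to before treatment. The members are the 8 arrays of HMBA at 36 h and at 24 h, 4 at each time, of 60 arrays in the series. The comparison groups are cells given 1.5% DMSO (dimethyl sulfoxide) or 30 nM TSA (trichostatin A, an inhibitor of histone deacetylases) for 24 and 36 h, with 8 arrays each. HMBA, DMSO and TSA were also followed at 1, 6 and 12 h. Every group is the same line, grown in RPMI1640 with 10% fetal calf serum, and carries no labelled genetic change; 1 of the DMSO labels writes the dose without its decimal point. The before-treatment cells are the only baseline: no culture kept untreated for 24 or 36 h was labelled, so time in culture and HMBA cannot be told apart.

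MEL cells are red cell precursors transformed by the Friend virus complex and held at a stage that resembles the proerythroblast. Inducers such as HMBA and DMSO lead them, after a delay, to stop dividing, to take up iron and to make haem and globin. In bulk RNA such as this, fewer cells of a type and less RNA per cell cannot be told apart. The arrays carry cDNA clones known here only by plate and well: H3121B01 is the clone in row B, column 1 of plate H3121. None of the 22656 clone identifiers (0 matched) could be tied to a gene in the RefSeq table for mouse, so clones are given without gene names, roles or sequences, and the labelled cell type could not be checked against erythroid markers.

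Per the labels, a condition's 4 arrays repeat the same RNA comparison and are technical replicates. Replicates 1 and 2 carried the treated RNA in the dye Cy5 and replicates 3 and 4 carried it in Cy3. A clone's value at one time is the mean of its Cy5 mean and its Cy3 mean, as log2 of after over before treatment, so that 1 means a doubling and -1 a halving. Of the 8 arrays, the sparsest listed 16550 clones and the fullest 19412; 14582 clones appeared often enough in all 15 conditions to be tested. Across clones, arrays of the same time and dye orientation correlated at r = 0.322 to 0.576 and arrays of the same time and opposite orientation at 0.164 to 0.316, a description over clones that share slides and extracts. Arrays of different times correlated at 0.222 to 0.472 in the same orientation and at 0.116 to 0.221 in opposite orientations. Pairs that shared only the orientation thus reached higher values than pairs that shared only the time. Rows of the clone plates took up 25.2% of the variance between clones at 36 h and 7.22% at 24 h.

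At 36 h of HMBA, 687 clones (4.71% of those tested) had changed relative to before treatment: 448 rose (3.07%) and 239 fell (1.64%). At 24 h, 218 rose and 74 fell, 1.49% and 0.507% of those tested. These calls come from limma fitted across all clones and all 15 conditions, with a Benjamini-Hochberg adjusted p under 0.05. Both counts moved with the processing. The 687 clones at 36 h became 1544 without replicate 4 of HMBA 36 h, and between 289 and 373 without background correction, with the authors' deposited ratios, with the Cy3 arrays alone or without the 12 h conditions. The 292 clones at 24 h became 499 without replicate 2 of HMBA 24 h, and lay between 98 and 608 under the other settings. Taking both times as a pair in a fit without the 1 h conditions, 1088 clones rose and 626 fell, 7.46% and 4.29% of those tested. Each culture was sampled once per time, so the p-values rest on how far the condition means scatter about the fit, and a condition that stands alone is assumed to vary like the others. They do not cover a repeat of the culture.

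A rule of size, with no test, picked the clones that moved together in both dye orientations at both times. A clone passed if its means at 36 h and at 24 h were both at least 1 log2 unit from 0 on the same side and all its listed values on the 8 arrays lay on that side. It passed 119 clones upward, 0.816% of those tested, and 38 downward, 0.261% of those tested. At 36 h alone 292 clones passed upward (2%) and 138 downward (0.946%), and at 24 h alone 233 passed upward (1.6%) and 95 downward (0.651%). A shift that follows the dye has the opposite sign in the 2 orientations: clones at least 1 log2 unit apart in that way, with 1 sign in Cy5 and the other in Cy3, numbered 74 at 36 h and 39 at 24 h, and 0 did so at both times. Of the 119 clones, 110 were listed on all 8 arrays and 24 exceeded 1 log2 unit on every one of their arrays, as did 12 of the 38.

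**Figure D1:**
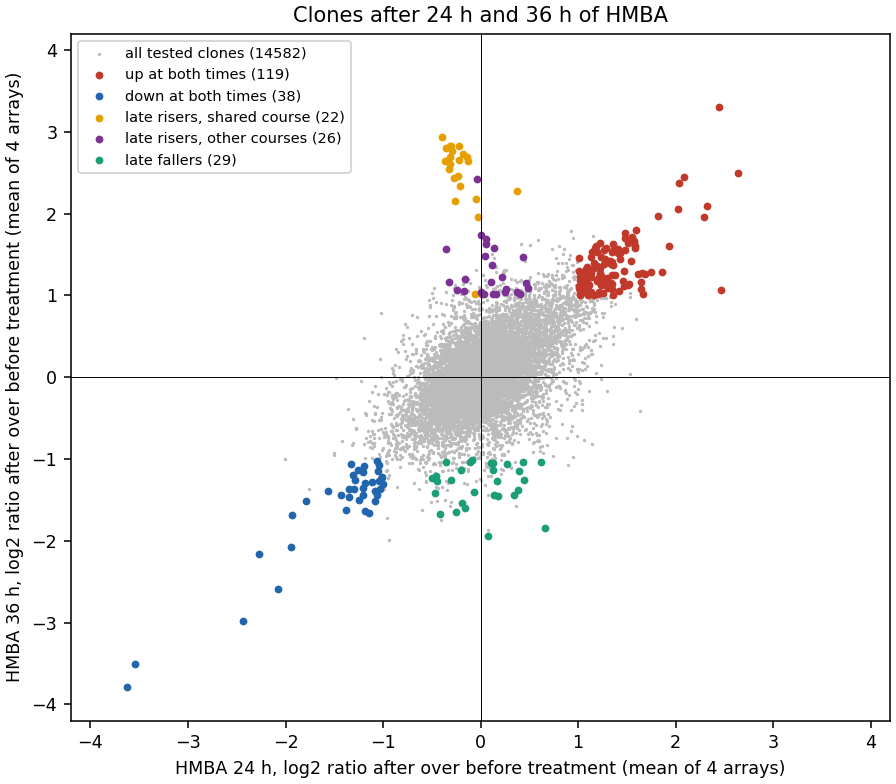
Log2 ratio of after over before treatment at 36 h of HMBA (vertical) against 24 h (horizontal) for the 14582 tested clones, each point the mean of the 4 arrays of a time. The 119 clones up and the 38 down at both times lie along the diagonal by their rule, the late risers stand above 1 at 36 h and under 0.5 at 24 h, and the late fallers mirror them.

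H3055A12 was among the most even of the clones that were higher at both times. Its log2 ratios were 2.50, 2.86, 2.11 and 2.50 on replicates 1 to 4 at 36 h, and 2.57, 2.68, 2.60 and 2.69 at 24 h. The arrays of the 2 times overlapped, and all 8 lay above 2. Its mean was 2.49 ± 0.31 at 36 h, 5.63-fold over before treatment, and 2.63 ± 0.06 at 24 h, 6.21-fold over before treatment (SD, n = 4 technical arrays each). Its spot intensity after treatment was 4151 to 8702 at 36 h, against 884 to 1467 before treatment on the same arrays. H3038G12 had the highest mean of the set at 36 h, 3.30 ± 1.26 (SD, n = 3 technical arrays), from values of 4.26, 2.94 and 1.74. At 24 h it gave 2.44 ± 0.31 (SD, n = 4 technical arrays), from 2.42, 2.87, 2.31 and 2.16. The 36 h values of H3038G12 spread far more widely than its 24 h values and enclosed all of them.

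H3024C12, H3024D01 and H3024D02 sit in consecutive wells of plate H3024, read along rows of 12, and gave like values. H3024C12 read 2.47, 2.49, 2.85 and 1.98 at 36 h and 1.96, 2.13, 1.98 and 2.28 at 24 h. H3024D01 read 1.55, 1.48, 2.71 and 2.09 at 36 h and 2.33, 1.95, 2.44 and 2.43 at 24 h. H3024D02 read 1.56, 1.69, 3.17 and 1.97 at 36 h and 2.54, 2.57, 1.75 and 2.41 at 24 h. In each of the 3 clones the arrays of the 2 times overlapped. H3009G09 rested on fewer and less even values: 4.06, 0.48 and 0.88 at 36 h, and 2.83, 1.34 and 1.14 at 24 h. In H3009G09 the Cy5 array gave the high value at each time, and with the Cy3 arrays alone its mean over both times was 0.96, no longer past the adjusted p of 0.05 in limma. At 36 h the 6 named clones passed limma's test with adjusted p of 0.00522 to 0.00776, and at 24 h with 0.00746 to 0.022, which describes the choice and adds no support to it.

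Among the clones that were lower at both times, H3144G06 stood lowest. It read -3.40, -3.61, -4.34 and -3.82 at 36 h and -3.41, -3.39, -4.07 and -3.64 at 24 h. Its mean was -3.79 ± 0.41 at 36 h, which is 0.0721 of the level before treatment, and -3.62 ± 0.31 at 24 h, 0.0811 of that level (SD, n = 4 technical arrays each). Its intensity after treatment was 29 to 416 at 36 h, against 998 to 1874 before treatment. H3035B01 was nearly as low, at -3.65, -3.79, -2.86 and -3.72 at 36 h and -3.65, -3.51, -3.49 and -3.53 at 24 h. The other 4 of the 6 lowest, H3052G06, H4015E06, H3113A12 and H3140F01, had means of -2.99, -2.59, -2.16 and -2.07 at 36 h, and of -2.44, -2.08, -2.27 and -1.95 at 24 h. The arrays of the 2 times overlapped in each of these 4 clones.

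**Figure D2:**
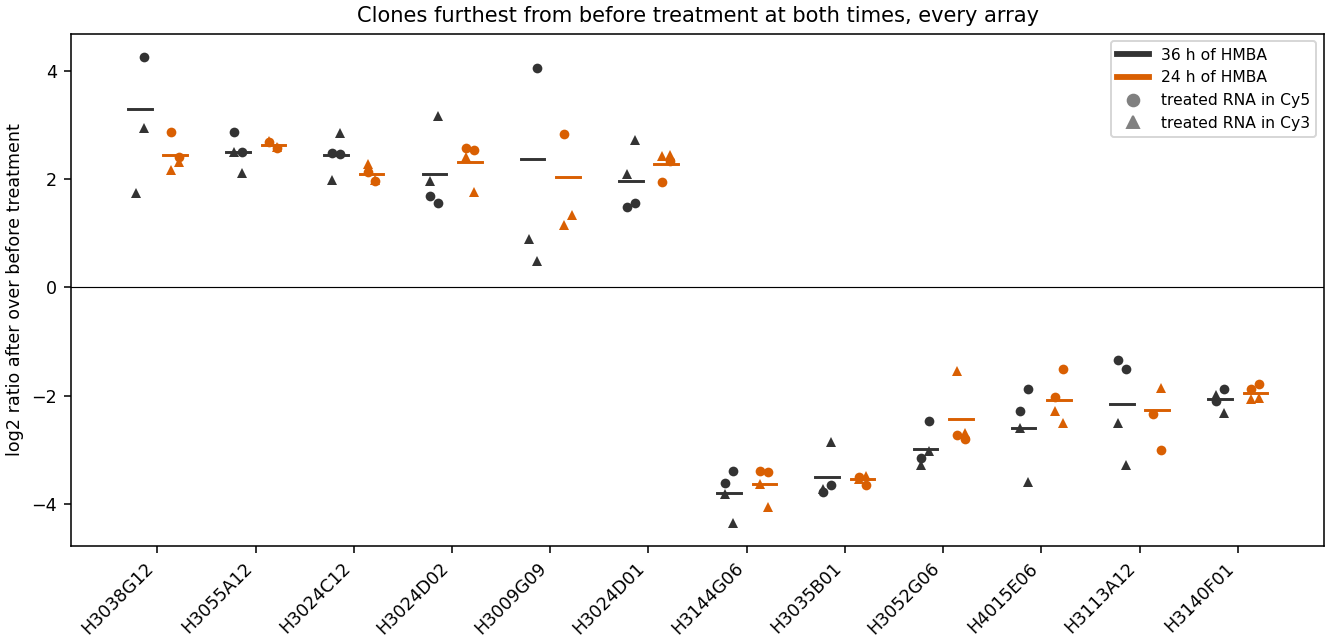
Log2 ratio of after over before treatment on every array for the 6 highest and the 6 lowest clones of the lists up and down at both times, with 36 h left of 24 h for each clone, circles for treated RNA in Cy5, triangles for Cy3 and a bar at the mean. H3055A12 lies between 2.11 and 2.86 on all 8 arrays, while H3009G09 spans 0.48 to 4.06.

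At the edge of the rule, H4020D06 was the upward clone just inside, with means of 1.001 at 36 h and 1.024 at 24 h, and H3135F06 was just outside, with 0.998 at 36 h and 1.063 at 24 h. Downward, H4011B11 was just inside, with -1.31 at 36 h and -1.003 at 24 h, and H4020C08 just outside, with -1.36 at 36 h and -0.994 at 24 h. The clones on either side of the limit thus differed by less than the SD of their arrays, which was 0.11 to 0.57.

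Both lists had most of their change by 12 h. The clones higher at both times had a median log2 ratio of 0.95 after 6 h of HMBA, 1.20 after 12 h, 1.29 after 24 h and 1.28 after 36 h, beside medians of all tested clones between -0.01 and 0.02. Of the 119, 54 were already at least 1 log2 unit up at 6 h and 85 at 12 h, beside 326 and 285 of the 14582 tested clones. The clones lower at both times had medians of -1.05, -1.33, -1.23 and -1.38 after 6, 12, 24 and 36 h. Of the 38, 20 were at least 1 log2 unit down at 6 h, beside 283 of the 14582 tested clones. The 36 h minus 24 h difference had a median of 0.04 in the first list and -0.12 in the second; 0 of the 119 and 0 of the 38 passed limma's test for that difference, as did 0% of all clones.

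Named clones differed in their course. H3035B01 was at -3.91 after 6 h of HMBA, -3.71 after 12 h, -3.55 after 24 h and -3.50 after 36 h. H3144G06 was at -0.47, -1.43, -3.62 and -3.79 at the same times, and H3052G06 at -0.58, -1.68, -2.44 and -2.99. H3035B01 was thus low throughout, while H3144G06 and H3052G06 were lower at each later time. H3024C12 was at 2.56 after 6 h, 2.75 after 12 h, 2.09 after 24 h and 2.45 after 36 h.

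The lists were unevenly spread over the clone plates. Of the 119 clones, 89 (74.8%) lay on plates H3001 to H3120, which hold 48.8% of the tested clones and form 1 of the 2 slides of an HMBA array. Plate H3023 held 7 of the 119 and plate H3024 held 6. Row A of plate H3028 held 5, in wells 3 to 7, with 36 h means of 1.56, 1.63, 1.56, 1.56 and 1.56 and 24 h means of 1.38, 1.36, 1.39, 1.27 and 1.41. The 38 lower clones lay in 38 different plate rows. With the median of each plate row removed from each array, 47 of the 119 and 26 of the 38 still passed. That step also takes away what neighbouring members share, but only 29 of the 119 and 0 of the 38 shared a plate row with another member. Why the other clones were lost was not tested.

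The lists were chosen on HMBA values, so the DMSO and TSA values are given beside them as a description. The 119 clones had a median log2 ratio of 1.28 in HMBA at 36 h, against 0.51 in DMSO and 0.39 in TSA. At 24 h their median was 1.29 in HMBA, against 0.74 in DMSO and 0.52 in TSA. The 38 clones had a median of -1.38 in HMBA at 36 h, against -0.87 in DMSO and -0.58 in TSA, and of -1.23 in HMBA at 24 h, against -0.89 in DMSO and -0.75 in TSA. The sources used here do not say whether the RNA before treatment was 1 extract, so the 3 compounds may share it.

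Across all clones, the mean of HMBA at 24 and 36 h differed from that of DMSO for 54 (0.37%), with 48 higher and 6 lower in HMBA, which is 0.329% and 0.0411% of those tested. It differed from that of TSA for 768 (5.27%), with 493 higher and 275 lower, 3.38% and 1.89% of those tested. The DMSO count was not stable: it was 18 without replicate 3 of HMBA 36 h and 0 without the 12 h conditions. The TSA count was 618 to 966 leaving out single arrays, but 76 with the Cy5 arrays alone and 277 without the 12 h conditions. The compounds are unlike in structure and were given at 1 dose each, which were not matched. DMSO arrays divide the plates differently between their 2 slides, and each slide was normalized on its own. A difference between HMBA and DMSO therefore cannot be told apart from one of slide layout, for the counts, lists and single clones alike. An uncalled clone is not shown to respond alike, since the 95% interval of the difference reached 0.41 log2 units to either side for the median clone.

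The named clones at both times were picked as highest or lowest in late HMBA, and those values are 1 side of each difference. Their differences and p-values are thus not independent of the choice. H3024C12 and H3024D01 were higher in HMBA than in both other compounds. H3024C12 averaged 2.45 at 36 h and 2.09 at 24 h in HMBA, against 0.79 and 1.19 in DMSO and 0.84 and 0.52 in TSA at the same times. Its difference from DMSO was 1.28 ± 0.21 (SE; limma, adjusted p = 0.0425) and from TSA 1.58 ± 0.21 (adjusted p = 0.00646). H3024D01 differed from DMSO by 1.17 ± 0.16 (SE; limma, adjusted p = 0.029) and from TSA by 1.34 ± 0.16 (adjusted p = 0.00646). The third clone of that run of wells, H3024D02, differed from TSA by 1.49 ± 0.24 (SE; limma, adjusted p = 0.0119), while its difference of 1.23 from DMSO had an adjusted p of 0.0788.

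H3144G06 separated HMBA from TSA most widely among the named clones. It stood at -3.79 and -3.62 in HMBA at 36 and 24 h, against -2.20 and -1.27 in DMSO and 0.35 and 0.02 in TSA. The difference from TSA was -3.89 ± 0.38 (SE; limma, adjusted p = 0.00444) and the difference from DMSO was -1.97 with an adjusted p of 0.0739. H3035B01 was low under all 3 compounds, at -3.50 and -3.55 in HMBA, -2.09 and -2.53 in DMSO and -3.003 and -3.21 in TSA at 36 and 24 h. It was lower in HMBA than in DMSO by -1.21 ± 0.17 (SE; limma, adjusted p = 0.029), and its difference from TSA was -0.42 with an adjusted p of 0.178. In H3140F01 neither difference passed: 0.24 from DMSO, with a 95% interval of -0.18 to 0.67, and -0.18 from TSA, with an interval of -0.61 to 0.24.

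The call that set late HMBA (24 and 36 h) apart from early HMBA (6 and 12 h) was a single clone, H4040B02, 0.00686% of those tested, named after its values were seen. After 6, 12, 24 and 36 h it stood at -0.73, -0.97, 0.84 and 1.22. All 8 late arrays were above 0, between 0.36 and 1.39. The late minus early difference was 1.88 ± 0.17 (SE; limma, adjusted p = 0.0132), and 2044 clones had an unadjusted p under 0.05. The call was lost with plate-row medians removed, with the Cy5 or the Cy3 arrays alone, and without the 12 h conditions, each of which gave 0 calls. In DMSO it remained low, at -0.71 at 24 h and -0.58 at 36 h, and its late HMBA minus late DMSO difference of 1.67 ± 0.17 had the smallest adjusted p of that comparison (limma, 0.0123). H3037D02 and H4016D11, also named after their values were seen, had the widest upward differences from DMSO among the called clones. H3037D02 stood at -2.05 at 6 h of HMBA and at -0.17 and 0.54 at 24 and 36 h, against -2.51 and -2.10 in DMSO at 24 and 36 h. H4016D11 stood at -2.05 at 6 h of HMBA and at -0.32 and 0.08 at 24 and 36 h, against -2.54 and -2.44 in DMSO. Their differences from DMSO were 2.49 ± 0.32 and 2.37 ± 0.28 (SE; limma, adjusted p = 0.0278 and 0.0209).

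Turning to what appeared between 24 and 36 h, no clone passed limma's test for the 36 h minus 24 h difference (0 called, 0%), with 948 clones at an unadjusted p under 0.05 and a smallest adjusted p of 0.155. The 95% interval of that difference reached 0.63 log2 units to either side for the median clone. With the Cy5 arrays alone the count was 75. The clones below were therefore picked by size and are described, not tested. A late riser had a mean of at least 1 log2 unit at 36 h, all its listed arrays at 36 h above 0, and a mean under 0.5 at 24 h. In each dye orientation every listed array at 36 h also had to lie above every listed array at 24 h. Where an orientation listed a clone on 1 array, that array stood alone. Late fallers are the mirror image. The rule found 48 late risers, 0.329% of those tested, and 29 late fallers, 0.199% of those tested. The riser count was 170 without replicate 4 of HMBA 36 h, 103 without replicate 3, and 34 without replicate 1.

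The late risers were divided, by a cut on likeness to the widest of them given below, into a group with a shared course and a remainder. The 8 with the widest 36 h minus 24 h difference were H3121B01, H3124F12, H3123E05, H3125H07, H3126G09, H3125H11, H3126A10 and H3045A12. H3121B01, the widest, read 2.61, 2.54, 2.86 and 3.74 at 36 h and -0.38, -0.50, -0.38 and -0.31 at 24 h. No 36 h array of it came near a 24 h array. Its mean was 2.94 ± 0.55 at 36 h and -0.39 ± 0.08 at 24 h (SD, n = 4 technical arrays each), 7.67-fold and 0.761-fold of before treatment and 10.1-fold apart. Its intensity after treatment was 7719 to 21150 at 36 h and 1156 to 2643 at 24 h, while the intensity before treatment was 1520 to 2554 on the 36 h arrays and 1750 to 2501 on the 24 h arrays.

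The other 7 had means of 2.64 to 2.83 at 36 h and -0.36 to -0.22 at 24 h. H3126G09 read 2.92, 2.51, 2.95 and 2.65 at 36 h and -0.16, -0.25, -0.58 and -0.17 at 24 h. H3124F12 read 2.92, 2.61, 2.76 and 2.89 at 36 h and -0.19, 0.03, -0.61 and -0.64 at 24 h. H3045A12 was the least even, at 3.65, 2.95, 1.84 and 2.30 at 36 h, against -0.59, -0.03, -0.31 and -0.33 at 24 h. In each of these 8 clones the 36 h arrays lay wholly above the 24 h arrays, as the rule requires within each dye.

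Likeness of course was measured by the correlation with H3121B01 over the 13 conditions other than HMBA at 24 and 36 h, a description over conditions that may share the RNA before treatment. At r of at least 0.9, 22 of the 48 late risers were alike, the lowest at 0.904, and the 8 named clones are among them. The Cy3 arrays of HMBA 1 h correlated with each other at r = -0.322, so the direction at that condition is not settled; without it all 22 remained at 0.903 or above. Over 6, 12, 24 and 36 h of HMBA the 22 had median log2 ratios of -1.51, -1.04, -0.25 and 2.64. At 6 h, 20 of them were at least 1 log2 unit below before treatment, beside 283 of the 14582 tested clones. Their step between times was 0.82 between 12 and 24 h and 2.87 between 24 and 36 h, as medians, and each of the 22 had a 36 h minus 24 h difference between 1.07 and 3.33.

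The same clones were higher earlier in TSA. The correlation that chose the 22 used their DMSO and TSA values and their HMBA values before 24 h. The course of the 22 in those conditions thus describes the choice. Medians of the 22 after 12, 24 and 36 h were -0.26, 0.21 and 1.36 in DMSO and 0.68, 3.21 and 4.27 in TSA. A step of at least 1 log2 unit was present in 22 of 22 clones between 12 and 24 h of TSA, beside 205 of the 14582 tested clones. Between 24 and 36 h of DMSO it was present in 14 of 22, beside 67 of the 14582. Late HMBA minus late TSA was -2.52 as a median over the 22, and 3 of them passed limma's test for that difference (adjusted p of 0.0253 to 0.205 over the 22), where 1.89% of all tested clones were lower in HMBA. H3126A10 was 1 of the 3, at -3.21 ± 0.77 (SE; adjusted p = 0.0428), with 2.64 and -0.36 in HMBA against 5.00 and 3.71 in TSA at 36 and 24 h. Late HMBA minus late DMSO passed for 0 of the 22, where 0.37% of all tested clones passed, with adjusted p of 0.486 to 0.962. Their median difference was 0.36, beside medians of 2.64 in HMBA and 1.36 in DMSO at 36 h, and of -0.25 and 0.21 at 24 h. Both late tests count a change between 24 and 36 h as spread. The 22 were picked for such a change, so an uncalled clone is not shown to respond alike.

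**Figure D3:**
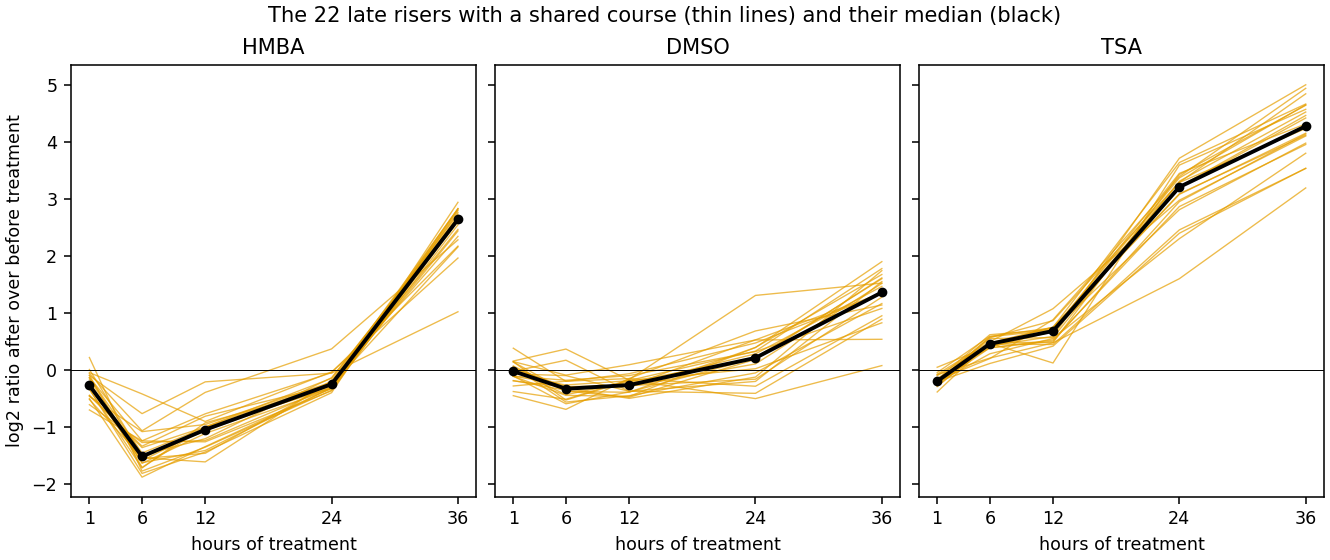
Log2 ratio of after over before treatment against hours of treatment in HMBA, DMSO and TSA for the 22 late risers with a shared course (thin lines, means of 4 arrays) and their median (black). The median is near 0 at 24 h and 2.64 at 36 h in HMBA, 1.36 at 36 h in DMSO, and 3.21 at 24 h and 4.27 at 36 h in TSA. The values outside HMBA at 24 and 36 h entered the choice of the 22.

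The median of the 22 clones was alike across the arrays of a time. Their median log2 ratio was 2.52, 2.51, 2.76 and 2.57 on replicates 1 to 4 at 36 h, and -0.20, -0.19, -0.28 and -0.20 at 24 h. Single clones spread more widely, over 0.14 to 3.65 on replicate 1 at 36 h and 0.85 to 3.24 on replicate 2. Of the 22, 21 were listed on all 8 arrays. Under the alternative settings run, 20 to 22 of them still passed as late risers, with 20 when the median of each plate row was removed, with the Cy5 arrays alone and without replicate 2 of HMBA 36 h. In limma the 36 h minus 24 h difference of the 22 had a standard error of 0.67 to 1.26, against a median of 0.28 over all clones, and adjusted p of 0.367 to 0.975. That standard error is taken from how far the other 13 conditions depart from a sum of compound and time effects. Those 13 include HMBA 1 h; without it the single-time counts were 868 at 36 h and 410 at 24 h, and that for 36 h minus 24 h stayed at 0.

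The 22 clones clustered on the plates. They lay on 10 plates, with 4 (18.2%) on plates H3001 to H3120 and the other 18 above them, on the second slide. Plates H3001 to H3120 hold 48.8% of all tested clones. By row letter, 10 of the 22 (45.5%) lay in row H, against 12.5% of all tested clones. Rows B, D, F and H together held 15 of the 22 (68.2%), against 50.5% of all tested clones. Row H of plate H3122 held 5, in wells 8 to 12, with 36 h means of 2.34, 2.61, 2.69, 2.64 and 2.54 and 24 h means of -0.21, -0.31, -0.14, -0.13 and -0.33 in the order of the wells. Whether such neighbours carry the same sequence could not be read from the identifiers. Among all tested clones, 36 had the course outside late HMBA at r of at least 0.9, and 14 of these were not late risers. Those 14 had a median of 0.16 at 36 h of HMBA and -0.17 at 24 h, and a median of 2.22 at 36 h of TSA. At 36 h of HMBA, 0 of 14 were at 1 log2 unit or more. Their 24 h means were at most 0.11, so that count largely restates why they were not late risers.

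The 26 late risers of other courses were smaller and less even. Their 36 h minus 24 h difference had a median of 1.05, between 0.60 and 2.46, and adjusted p in limma of 0.178 to 1. Their median by array was 1.87, 0.83, 1.25 and 0.64 on replicates 1 to 4 at 36 h, and -0.08, 0.21, 0.14 and 0.29 at 24 h. Replicate 1 at 36 h stood highest. They were near 0 under the other compounds, with medians at 36 h of 0.18 in DMSO and 0.34 in TSA. However, 3 of the 26 were at least 1 log2 unit up at 36 h of TSA, beside 270 of the 14582 tested clones. Those 3 were H3122G09, at 2.42 in HMBA and 3.90 in TSA at 36 h, H4024C11, at 1.56 and 2.74, and H3156F01, at 1.09 and 1.32, named after their values were seen.

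Their plate rows differed from those of the tested clones as a whole. Of the 26, 24 lay in rows A, C, E or G and 2 (7.69%) in rows B, D, F or H, which hold 50.5% of all tested clones, and 22 of 26 lay on plates H3001 to H3120. On the slide with these plates, replicate 1 of HMBA 36 h had a median log2 ratio of -0.38 over all clones of rows B, D, F and H and 0.42 over those of rows A, C, E and G. Replicate 2 had -0.11 and 0.22 in the same rows, and the other 6 arrays had medians between -0.11 and 0.16 there. With the median of each plate row removed, 3 of the 26 were still late risers, and without replicate 1 of HMBA 36 h 7 were.

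The late fallers had the opposite row pattern. The 4 widest were H3056D06, H3083F04, H3091D07 and H3075B04. H3083F04 read -3.44, -0.50 and -0.39 on replicates 2 to 4 at 36 h, and 0.25, -0.23 and 0.06 on replicates 1, 3 and 4 at 24 h. H3056D06 read -3.18, -0.75 and -0.25 on the same arrays at 36 h, and 0.24, 1.37 and 0.80 at 24 h. In both clones replicate 2 alone was far below 0, and replicate 1 of 36 h did not list them. H3091D07 and H3075B04 had 36 h means of -1.44 and -1.38, against 24 h means of 0.34 and 0.39, also without replicate 1 at 36 h.

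Over the 29 late fallers, 26 (89.7%) lay in rows B, D, F or H and 26 on plates H3001 to H3120. Only 5 were listed on all 8 arrays (17.2%, against 84.1% of all tested clones), and replicate 1 of HMBA 36 h listed 10 of them. Their medians at 36 h were -1.34, -1.85, -0.82 and -0.43 on replicates 1 to 4, and between -0.18 and 0.08 on the 24 h arrays. In DMSO and TSA at 36 h their medians were -0.14 and -0.00475. With plate-row medians removed 7 of the 29 still passed, without replicate 2 of HMBA 36 h 7, and with the lowest quartile of clones by intensity before treatment left out 4. The part of the row pattern in these lists was not tested beyond these values.

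**Figure D4:**
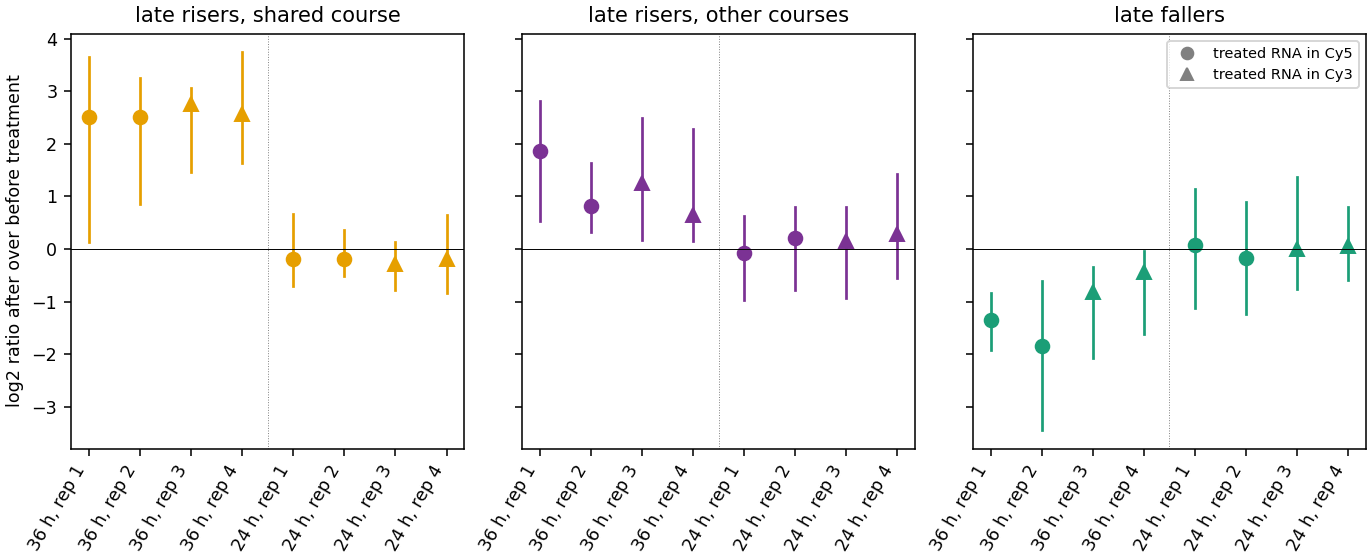
Median log2 ratio of after over before treatment over each list of late clones on each of the 8 HMBA arrays, with a line from the lowest to the highest clone; circles mark treated RNA in Cy5, triangles Cy3. The shared-course risers lie at 2.51 to 2.76 on all 4 arrays of 36 h, while the other risers range over 0.64 to 1.87 and the fallers over -1.85 to -0.43.

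**Figure D5:**
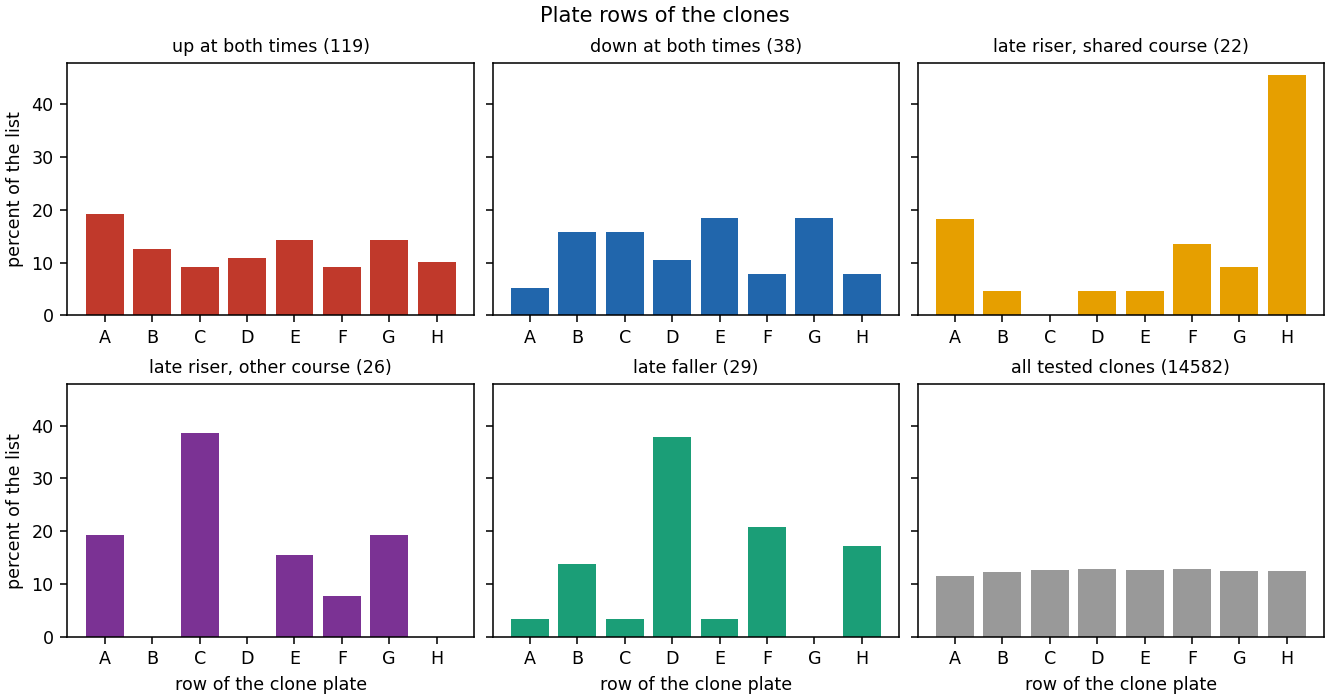
Share of each list, in percent, by the row letter of the clone plate, with all 14582 tested clones at the lower right. The late fallers are found mainly in rows B, D, F and H (89.7%) and the late risers of other courses mainly in rows A, C, E and G, with 7.69% elsewhere. Of the shared-course risers, 45.5% are in row H. The tested clones are spread almost evenly.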

How the data were processed

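The labels give 60 arrays, 15 conditions of 4 technical arrays; the grouping follows the titles. Each array has 2 slides, and the deposited files list a clone and 2 linear spot intensities, before and after treatment, per the file headers; the sources used here do not say how the authors scanned, flagged or corrected spots. The authors also deposited 1 linear ratio per clone and array, after over before, which correlated with the values used here at r = 0.966 to 0.997 on the 8 HMBA arrays of 24 and 36 h; its centring is not given.

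Intensities were corrected by normexp (offset 50) and loess (span 0.3) within each slide with limma 3.58.1 in R 4.3.3. Clones listed on at least 3 of 4 arrays in every condition were kept; missing arrays were left out of a clone's mean. Limma was fitted to condition means. For single times, HMBA 24 h and 36 h had coefficients of their own and the other 13 conditions compound and time effects (6 residual degrees of freedom). For late means, 12 conditions formed 6 groups of compound and phase (6 degrees of freedom). On the slides of DMSO arrays the plates are divided differently, with H3 plates on one slide and H4 plates on the other.

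Named clones are the 6 highest and 6 lowest at both times, the 8 widest late risers, the 4 widest late fallers and those at the limits of the rule. The members, lists and tests were chosen with earlier results of these data known. Planned gene lists and cell type markers were not tested, as clones had no gene names. Alternatives changed background, normalization, ratios, filters, dye, times, the prior, plate rows, size and each array in turn. The number of arrays limits the precision.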

Additional observations from a re-analysis of the deposited data

Results flagged for a closer look

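On 3 of 45 sets of 4 arrays of named clones, 1 array stood apart from the other 3; chance flags about 1 in 20. The 11 sets with 3 listed arrays were not looked at in this way. H3035B01 read -2.86 on replicate 3 at 36 h, against -3.79 to -3.65 on the others. H3052G06 read -1.54 on replicate 4 at 24 h, against -2.79 to -2.69. H3123E05 read 3.35 on replicate 4 at 36 h, against 2.63 to 2.69.

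Late HMBA differed from late DMSO, by limma's test of the difference itself, for 54 clones. Of the named clones, which were picked on late HMBA values, the difference was 1.28 for H3024C12, 1.17 for H3024D01 and -1.21 for H3035B01. It differed from late TSA for 768 clones, and among the named ones by 1.58 for H3024C12, 1.49 for H3024D02, 1.34 for H3024D01, -3.89 for H3144G06, -3.21 for H3126A10 and -1.29 for H4020C08 (adjusted p = 0.0158 in limma for the last).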

How the results depend on the processing

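None of the 28 named clones reversed under the alternatives run; 2 lost their late HMBA call with the Cy3 arrays alone, H3009G09 (0.96, against 2.20) and H4011B11 (-1.26, against -1.15). The 36 h minus 24 h difference passed with the Cy5 arrays alone for H3083F04 (-3.68) and H3075B04 (-2.72), and without replicate 4 of HMBA 36 h for H3083F04 (-2.05). The count at HMBA 24 h (292) was 491 with arrays scaled to one spread, 608 with plate-row medians removed, 187 with Cy5 and 104 with Cy3 arrays alone, 98 without the 12 h conditions, 506 with an intensity trend in the prior, and 353 to 499 leaving out single arrays. The count at 36 h (687) was 373 without background correction, 310 with the deposited ratios, 289 with Cy3 arrays, 355 without 12 h, and 623 to 1544 leaving out single arrays. For 36 h minus 24 h (0) it was 75 with Cy5 arrays and 0 to 4 leaving out single arrays. The late HMBA count (1714) was 1142 with 1 h in the early groups, and 1655 to 1896 leaving out single arrays. Late HMBA minus late DMSO (54) gave 33 with deposited ratios, 29 with the listing filter on late HMBA arrays only, 106 without the dimmest quartile, 15 with Cy5, 2 with Cy3, 0 without 12 h, 119 with the trend, and 18 to 79 leaving out single arrays; limma found 1846 at an unadjusted p under 0.05. Late HMBA minus late TSA (768) gave 76 with Cy5, 277 without 12 h, and 618 to 966 leaving out single arrays. Late minus early (1) gave 0 with plate-row medians removed, Cy5, Cy3 or without 12 h, 2 on clones listed on all 8 arrays, 8 without the dimmest quartile, 18 with the trend, and 1 to 3 leaving out single arrays.

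The 157 clones at both times became 101 with deposited ratios, 94 with plate-row medians removed, 24 at a size of 1.5, 673 at 0.58 and 36 with every array past the size, and 145 to 170 leaving out single arrays. The 48 late risers became 30 with deposited ratios, 27 with plate-row medians removed, 339 with Cy5 arrays, 27 at a size of 1.5, 99 at 0.58 and 24 with every array past the size, and 34 to 170 leaving out single arrays. Why the counts moved under these settings was not tested. No paired analysis was possible because the replicate numbers count technical arrays of 1 RNA comparison, not cultures, and each condition entered the fit as 1 value.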
